A study of Homo sapiens with 17 samples.

Results

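The first response of IMR32 neuroblastoma cells to induced NOTCH3IC was read from 4 arrays, those labelled time 4 and time 8 in clones c6 and c8, set against the 2 arrays of time 0. The arrays were chosen by their labels, and with time 0 they make 6 of the 17 arrays of the series. Time 12 was left out because, in earlier results of these data, clone c8 was already far along there. IMR32 is an established human neuroblastoma line in which the oncogene MYCN is amplified. Every array, time 0 included, holds RNA of IMR32 cells that carry a doxycycline-inducible construct for NOTCH3IC, the intracellular and active part of the receptor NOTCH3, grown in DMEM with fetal calf serum. Per the labels, doxycycline was given to induce NOTCH3IC, and time 0 is taken as the start of that series. Each line is a single clone, and each clone has 1 array per time, so arrays of times 4 and 8 serve as each other's replicates in the pooled comparison. No array of a culture kept without doxycycline past time 0 was analysed here, so doxycycline, time in culture and NOTCH3IC cannot be told apart. The labels give times without a unit and do not say whether each time was a separate culture. The p-values below therefore measure the spread between these arrays, which may be technical.

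In Notch signalling, a ligand on one cell binds a receptor on its neighbour, the receptor is cut, and its intracellular domain enters the nucleus. There it joins the DNA-binding protein RBPJ and coactivators of the Mastermind family and switches on genes, among which those of the HES and HEY families of basic helix-loop-helix repressors are the best known. In the developing sympathetic nervous system, from which neuroblastoma arises, Notch signalling holds back neuronal differentiation.

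The letters TGGGAA, the core that RBPJ recognises, were searched on both strands in promoter sequences of RefSeq (GRCh38.p14), and are shown for HES and HEY genes because these are the textbook targets and split into called and uncalled genes below. Each line gives the 250 bases before an annotated start and the first 3 bases of the gene, in the direction of transcription, with the core in capitals (TTCCCA where it lies on the other strand). HES1, HES4 and HEY2 rose in the first response, whereas HES5 and HEYL did not pass.
HES1: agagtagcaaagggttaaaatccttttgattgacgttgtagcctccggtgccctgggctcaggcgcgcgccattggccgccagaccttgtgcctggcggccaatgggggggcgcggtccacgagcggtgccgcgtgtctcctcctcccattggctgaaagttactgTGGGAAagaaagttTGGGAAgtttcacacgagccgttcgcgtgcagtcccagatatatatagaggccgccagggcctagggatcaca
HES4: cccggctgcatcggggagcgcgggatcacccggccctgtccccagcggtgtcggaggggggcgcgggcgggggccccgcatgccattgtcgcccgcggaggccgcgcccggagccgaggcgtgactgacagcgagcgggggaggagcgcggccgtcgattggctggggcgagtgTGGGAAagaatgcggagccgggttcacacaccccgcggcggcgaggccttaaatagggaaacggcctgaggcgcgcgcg
HEY2: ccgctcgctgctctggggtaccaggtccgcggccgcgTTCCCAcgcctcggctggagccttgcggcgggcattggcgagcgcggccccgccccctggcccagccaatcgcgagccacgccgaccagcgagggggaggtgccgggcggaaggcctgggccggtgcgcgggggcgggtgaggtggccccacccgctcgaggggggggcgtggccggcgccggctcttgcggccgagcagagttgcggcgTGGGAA
HES5: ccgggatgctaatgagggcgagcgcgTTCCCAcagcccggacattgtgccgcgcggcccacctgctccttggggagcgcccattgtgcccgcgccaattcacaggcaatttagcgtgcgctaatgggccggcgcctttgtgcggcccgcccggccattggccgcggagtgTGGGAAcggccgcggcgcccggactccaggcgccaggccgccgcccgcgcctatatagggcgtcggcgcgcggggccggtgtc
HEYL: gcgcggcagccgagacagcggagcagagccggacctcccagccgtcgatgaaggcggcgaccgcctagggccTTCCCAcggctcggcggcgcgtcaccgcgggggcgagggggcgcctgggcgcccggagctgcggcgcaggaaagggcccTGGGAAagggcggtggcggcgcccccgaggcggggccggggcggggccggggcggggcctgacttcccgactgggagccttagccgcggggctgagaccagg
These windows lie at chr3:194135898-194136150 (+ strand), chr1:1000095-1000347 (- strand), chr6:125749382-125749634 (+ strand), chr1:2530261-2530513 (- strand) and chr1:39639641-39639893 (- strand). Counted from the start base as 0, the cores of HES1 begin at -84 and -70, that of HES4 at -76, those of HEY2 at -213 (other strand) and -3, those of HES5 at -224 (other strand) and -80, and those of HEYL at -178 (other strand) and -99. The called HES1, HES4 and HEY2 and the uncalled HES5 and HEYL all hold the core in these windows. HEY1 had no entry in the promoter table. In windows of 300 bases, which run 50 bases into the gene, TGGGAA was found for 10 of the 45 risen genes with a promoter in the table (22.2%), 2 of the 11 fallen ones (18.2%), and 2418 of the 11053 tested ones (21.9%). The longer form GTGGGAA, which contains the core, was found for 4 of the 45 risen genes (8.89%), 1 of the 11 fallen ones (9.09%) and 651 of the 11053 tested ones (5.89%). JAG1, ID1, RGS4, CXCL12 and NRARP hold no core in these windows, and CXCR4 holds 1. A match is a description of letters and not a site of binding.

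Across the 6 arrays, signals are intensities scaled by the authors, with array medians between 14.6 and 17.8. Changes are log2 of (signal + 16) with the standard error of the limma fit, called at an adjusted p under 0.05, and they understate the change of dim genes. Of 9 neuroblast markers with a probe set, TH and STMN2 stayed below a signal of 16 on all 6 arrays. The summed signal of the 9 was 10666 to 12554 at times 4 and 8, against 12847 and 12932 at time 0. Of the markers of other cell types, the 7 for smooth muscle and pericytes summed to 131 to 226 at times 4 and 8 and 132 and 204 at time 0, with TAGLN, MYH11, CNN1 and CSPG4 below 16 throughout. Glial markers (5 of 6 below 16), endothelial (5 of 7), leukocyte (4 of 5) and epithelial ones (3 of 5) summed to at most 67.0 at times 4 and 8, and at most 61.7 at time 0. The 9 fibroblast markers summed to 905 to 1418 at times 4 and 8, against 1396 and 1042 at time 0, and COL1A2, LUM and FAP stayed below 16. Most of that sum came from PDGFRA, at 488 to 759.7 at times 4 and 8, against 879.7 and 708 at time 0, and from COL1A1, at 158 to 449 at times 4 and 8, against 391 and 181 at time 0. The part of these markers in the results was not tested.

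The pooled comparison called few genes, most of them higher, while time 8 alone called 391 higher and 291 lower. Of 13675 genes tested, 76 changed at times 4 and 8 against time 0 (0.556%), 59 of them higher (0.431%) and 17 lower (0.124%). Of the risen genes 32 changed 2-fold or more, and of the fallen genes 2 did, CT75 and NANOS1. The median change of all genes was 0.01. All 59 risen genes lay above their own clone's time 0 on all 4 arrays, as 16% of all genes tested did. For 55 of the risen genes every array of times 4 and 8 lay above both time-0 arrays, an arrangement found for 7.78% of all genes tested. Set against the time 0 of the same clone, the risen genes of clone c6 had a median change of 0.77 at time 4 and 1.20 at time 8. For clone c8 the median was 0.99 at time 4 and 1.13 at time 8. The number of called genes rested on few arrays: with the c6 array of time 0 left out it was 11, with the c8 array of time 0 left out 7, and with the c6 array of time 4 left out 381. In these arrays of whole cultures, more cells expressing a gene and more RNA per cell cannot be told apart.

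Repressors of the HES and HEY families led the rises. HEY1, a transcriptional repressor, had signals of 553 at time 4 and 1820.5 at time 8 in clone c6, then 2259 and 3174 in clone c8, against 30.0 and 71.4 at time 0. Its change was 4.71 ± 0.33, adjusted p = 1.04e-05, a 26.2-fold rise on the scale of signal + 16. HES1, the best-known member of the HES family, had clone c6 signals of 308 and 479 and clone c8 signals of 356 and 326 at times 4 and 8, against 3.9 and 14.3 at time 0. Both time-0 arrays of HES1 were below 16, and all 4 later arrays were above them, with no order between times 4 and 8 that held in both clones. The change of HES1 was 3.94 ± 0.20, adjusted p = 4.91e-07.

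HES4, a relative of HES1, and HEY2, a relative of HEY1, rose less and from low signals. HES4 had signals of 29.6 at time 4 and 42.6 at time 8 in clone c6, then 36.9 and 38.3 in clone c8, against 3.5 and 11.7 at time 0 (1.18 ± 0.20, adjusted p = 0.021), and HEY2 had clone c6 signals of 44.1 and 36.8 and clone c8 signals of 52.3 and 78.3 at times 4 and 8, against 16.9 and 17.1 at time 0 (1.03 ± 0.20, adjusted p = 0.0424). In both genes every array of times 4 and 8 lay above both time-0 arrays. HEYL, the third HEY gene, had signals of 32.8 at time 4 and 45.0 at time 8 in clone c6, then 46.7 and 64.3 in clone c8, against 29.5 and 48.5 at time 0, and its groups overlapped (0.20 ± 0.18, adjusted p = 0.784). HES5, a repressor of neural progenitors, stayed below 16 on all 6 arrays (0.13 ± 0.26, adjusted p = 0.922). NRARP, which encodes a feedback inhibitor of the Notch complex, was at 126 to 133 at times 4 and 8, against 58.0 and 97.9 at time 0, groups that do not overlap, but it did not pass (0.66 ± 0.16, adjusted p = 0.125). HES6, a HES family member that promotes neuronal differentiation, was at 182 to 331 at times 4 and 8, against 379 and 277 at time 0, and did not pass either. Of 20 measured HES, HEY and other Notch-related genes, 4 rose in the first response, HES1, HES4, HEY1 and HEY2, and none fell. Over all genes 0.431% rose and 0.124% fell. The list median was 0.14, against 0.01 over all genes. Under 16 alternative settings HES1 and HEY1 kept their calls in 16, HES4 in 10 and HEY2 in 4.

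**Figure D1:**
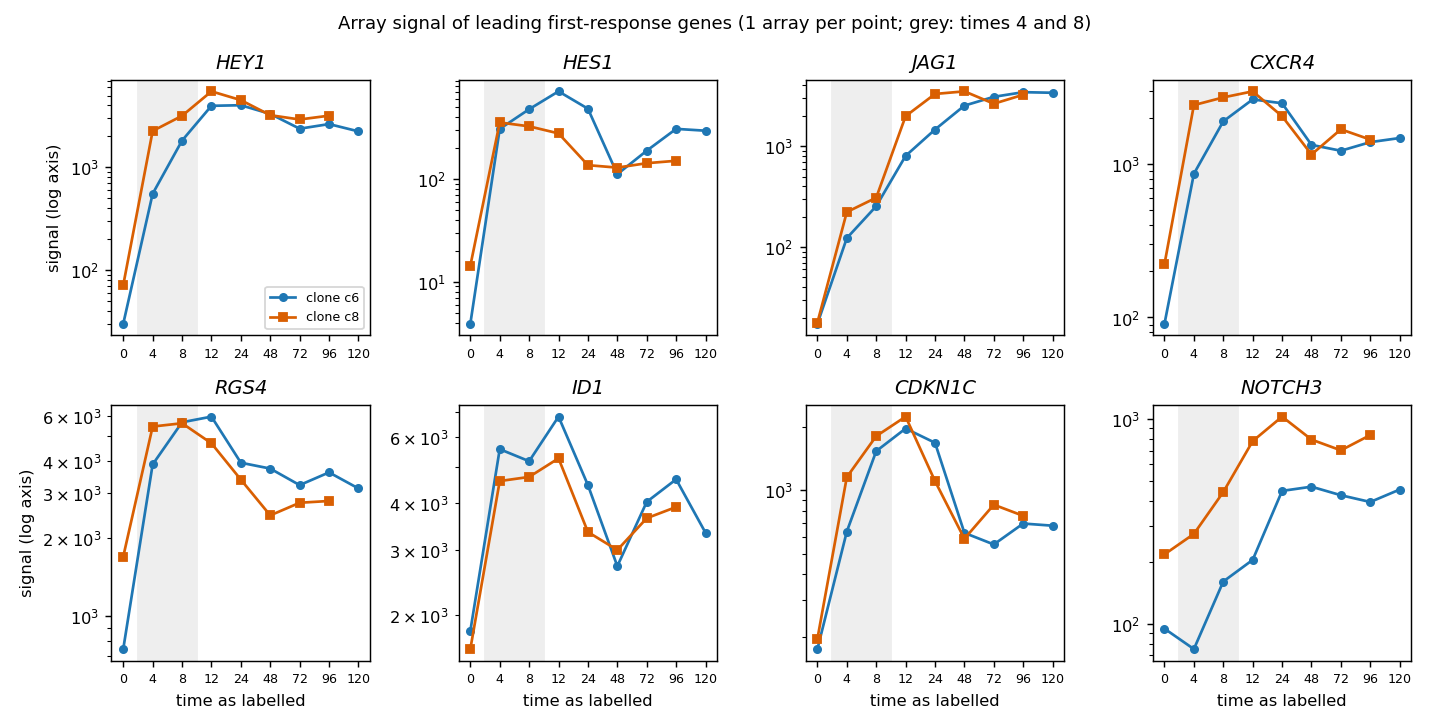
Signal (log axis) of 8 genes against time as labelled, spaced evenly, with 1 array per point, circles for clone c6, squares for clone c8, and times 4 and 8 in grey. HEY1, HES1, JAG1, CXCR4, RGS4, ID1 and CDKN1C lie above time 0 on all 4 arrays in grey, whereas NOTCH3 lies below its time 0 on the array of time 4 in clone c6.

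NOTCH3 itself did not pass over times 4 and 8. Its brighter probe set had clone c6 signals of 75.2 and 161 and clone c8 signals of 275 and 440.0 at times 4 and 8, against 94.6 and 218 at time 0, so that the array of time 4 in clone c6 lay below its own time 0 and the groups overlapped. The pooled change was 0.42 ± 0.24, adjusted p = 0.621. At time 8 alone it was 0.82 ± 0.16, adjusted p = 0.00911, higher in both clones. The dimmer NOTCH3 probe set was at 0.24 ± 0.20. The labels and annotation do not state which part of the transcript each reads or whether either detects the construct, so these signals do not check the induction directly.

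Among ligands, JAG1, which activates Notch receptors on neighbouring cells, had signals of 123 at time 4 and 254 at time 8 in clone c6, then 222 and 308 in clone c8, against 17.4 and 17.9 at time 0, so that every array of times 4 and 8 lay above both time-0 arrays. The change was 2.79 ± 0.24, adjusted p = 8.10e-05. Its 6 probe sets differed, with changes from -0.07 to 2.79, and the brightest was used. The ligands DLL1, at 18.3 to 77.2 at times 4 and 8, against 25.3 and 39.9 at time 0, and DLL3, at 157 to 304 at times 4 and 8, against 344 and 341 at time 0, did not pass. The groups overlapped for DLL1. For DLL3 all 4 arrays lay below both time-0 arrays, as for 5.94% of all genes tested. Its 4 probe sets were at -0.75 to -0.21, with the brightest at -0.60. Of 12 receptors and ligands JAG1 alone was called in the first response. Of 32 modulators, proteases and coactivators LFNG alone was. Over all genes 0.556% were called. LFNG encodes a glycosyltransferase that adds sugars to Notch receptors and alters their response to ligands. It had clone c6 signals of 103 and 140.2 and clone c8 signals of 142 and 163 at times 4 and 8, against 68.4 and 68.1 at time 0 (0.84 ± 0.16, adjusted p = 0.0379), again with no overlap.

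Genes of chemokine signalling rose on both sides of a ligand and receptor pair. CXCR4, the receptor for CXCL12 that guides cell migration, had signals of 864 at time 4 and 1898 at time 8 in clone c6, then 2421 and 2718 in clone c8, against 91.0 and 223 at time 0. The change was 3.52 ± 0.22, adjusted p = 3.94e-06, an 11.4-fold rise, and its 3 probe sets were at 3.41 to 3.60. CXCL12, the ligand, had clone c6 signals of 231 and 462 and clone c8 signals of 384 and 469.6 at times 4 and 8, against 148 and 112 at time 0 (1.42 ± 0.23, adjusted p = 0.0178). For both genes the 4 arrays lay above both time-0 arrays. Of the 9 measured chemokines and migration receptors these 2 rose in the first response and 0 fell, where 0.431% of all genes rose. ACKR3, which also binds CXCL12, had signals of 32.7 at time 4 and 61.8 at time 8 in clone c6, then 35.4 and 66.0 in clone c8, against 28.3 and 26.7 at time 0, and was called at time 8 (0.88 ± 0.19, adjusted p = 0.0187) and not over both times (0.54 ± 0.23, adjusted p = 0.466).

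RGS proteins shorten signalling by G-protein-coupled receptors. RGS4 had clone c6 signals of 3874 and 5652 and clone c8 signals of 5440.1 and 5603 at times 4 and 8, against 742 and 1698 at time 0, a change of 2.16 ± 0.18, adjusted p = 6.30e-05. Its 3 probe sets were at 2.16 to 2.91. The array of time 4 in clone c6 was the lowest of the 4, and all 4 stood above both time-0 arrays. RGS3 (0.95 ± 0.19, adjusted p = 0.0462) and RGS2 (0.68 ± 0.12, adjusted p = 0.0229) rose too, which makes 3 of 13 measured family members, with 0 fallen and a list median of 0.42, where 0.431% of all genes rose. Under 16 alternative settings RGS4 kept its call in 16, RGS2 in 6 and RGS3 in 4. The 2 dimmer probe sets of RGS3 were at 0.02 and 0.03.

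The axon guidance list of 36 genes had a median of -0.02, and 2 members rose, where 0.431% of all genes did. SEMA6D, a transmembrane semaphorin, had signals of 322 at time 4 and 435 at time 8 in clone c6, then 657 and 736 in clone c8, against 177 and 246 at time 0 (1.23 ± 0.15, adjusted p = 0.00237). EFNB2, the ephrin-B2 ligand of Eph receptors, had clone c6 signals of 261 and 309 and clone c8 signals of 263 and 309 at times 4 and 8, against 190.5 and 114 at time 0 (0.88 ± 0.17, adjusted p = 0.0363). Both sets of 4 arrays lay above time 0. Outside that list, NEO1, which encodes the guidance receptor neogenin, had signals of 391 at time 4 and 1125 at time 8 in clone c6, then 1053 and 1217 in clone c8, against 247 and 320.3 at time 0 (1.57 ± 0.28, adjusted p = 0.0311), and the array of time 4 in clone c6 stood well below the other 3.

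CDKN1C, which encodes the cyclin-dependent kinase inhibitor p57, had clone c6 signals of 636 and 1535 and clone c8 signals of 1155 and 1809.6 at times 4 and 8, against 176 and 197 at time 0. The change was 2.59 ± 0.27, adjusted p = 0.000506, and time 8 was above time 4 in both clones. Of 5 probe sets, 4 were at 2.38 to 2.86 and 1 at 0.09. ID1, an inhibitor of basic helix-loop-helix factors, had signals of 5580.1 at time 4 and 5179 at time 8 in clone c6, then 4581 and 4699.9 in clone c8, against 1814 and 1621 at time 0. It was bright before induction, and its 4 later arrays spanned a narrow range above both time-0 arrays, which gave the smallest standard error of the 76 called genes (1.53 ± 0.08, adjusted p = 4.91e-07). TGFB1, which encodes the growth factor TGF-beta 1, had clone c6 signals of 232 and 458 and clone c8 signals of 570.2 and 586 at times 4 and 8, against 151 and 263 at time 0 (1.07 ± 0.20, adjusted p = 0.0336), with the array of time 4 in clone c6 below the time 0 of clone c8, and its other probe set was at 0.19. ID1 and TGFB1 were the risen 2 of 23 ID, BMP and TGF-beta feedback genes, whose median was -0.11, where 0.431% of all genes rose.

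The other genes among the 15 largest rises had changes between 1.29 and 1.48. They are SHISA3, whose product retains WNT and FGF receptors inside the cell, at 50.7 to 176 at times 4 and 8, against 25.7 and 31.8 at time 0; MREG, a gene of melanosome transport, at 549 to 851 at times 4 and 8, against 243 and 262 at time 0; ST3GAL1, a sialyltransferase, at 123 to 307 at times 4 and 8, against 69.1 and 50.5 at time 0; LIPG, endothelial lipase, at 56.2 to 112 at times 4 and 8, against 21.9 and 15.1 at time 0; PRICKLE2, of planar cell polarity, at 38.1 to 75.8 at times 4 and 8, against 11.2 and 13.6 at time 0; and PCDH18, a protocadherin, at 107 to 222 at times 4 and 8, against 71.8 and 37.4 at time 0. Each was higher on 4 of 4 arrays, with adjusted p between 0.000722 for MREG and 0.0188 for SHISA3. GATA2, a transcription factor of the sympathetic lineage, had signals of 120.0 at time 4 and 108 at time 8 in clone c6, then 124 and 127 in clone c8, against 34.8 and 69.1 at time 0 (1.04 ± 0.17, adjusted p = 0.0162) on its brightest probe set, with no overlap between the groups. Its other probe sets were at 0.72 and -0.23.

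**Figure D2:**
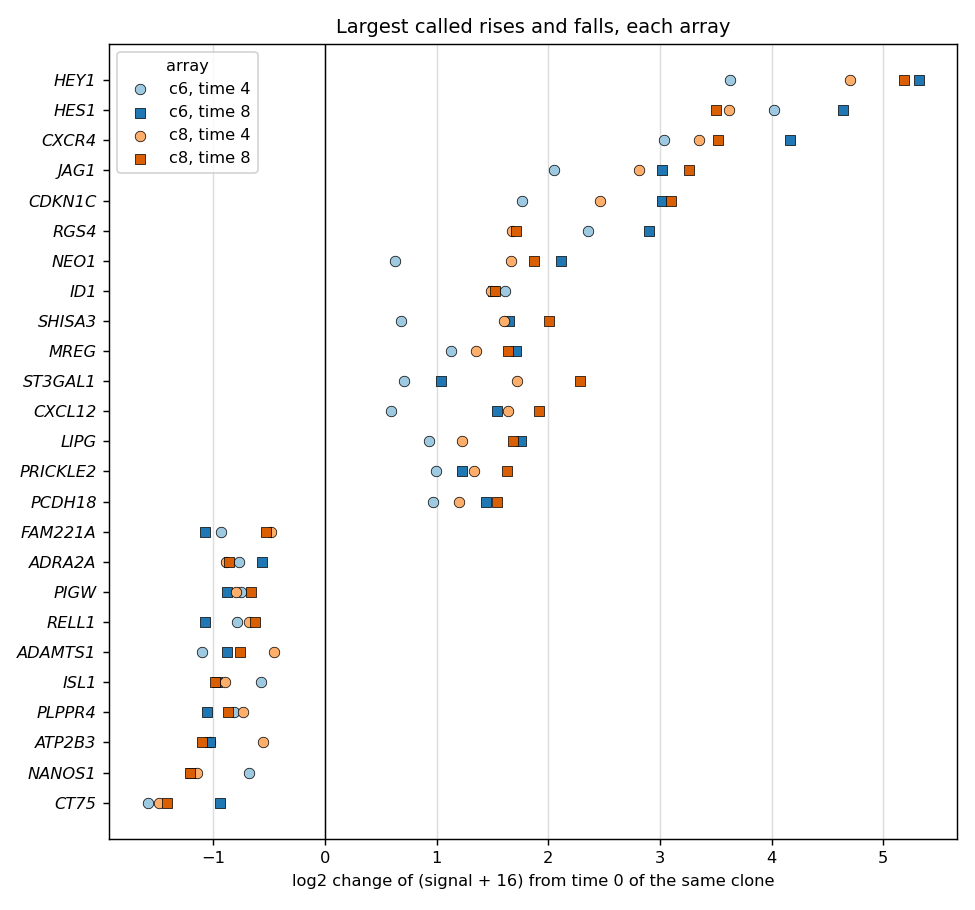
Log2 change of (signal + 16) from time 0 of the same clone (x axis) for the 15 largest called rises and 10 largest called falls (y axis), with circles for time 4, squares for time 8, blue for clone c6 and orange for clone c8, 1 array per point. HEY1 and HES1 stand furthest right and CT75 furthest left. No gene has arrays on both sides of 0, because genes were chosen with 4 of 4 arrays on the same side.

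The falls were fewer and smaller, and all 17 lay below their own time 0 on all 4 arrays, as 13.4% of all genes tested did. For 16 of the falls every array of times 4 and 8 was below both time-0 arrays, as for 5.94% of all genes tested. CT75, which carries a cancer/testis symbol, had clone c6 signals of 80.5 and 135 and clone c8 signals of 89.3 and 94.9 at times 4 and 8, against 274 and 279 at time 0. Its arrays of times 4 and 8 reached no more than 134.6, less than the lower time-0 array, and the change was -1.36 ± 0.17, adjusted p = 0.00334. NANOS1, a member of a family of translational repressors, had signals of 309.8 at time 4 and 211 at time 8 in clone c6, then 253 and 243 in clone c8, against 505 and 582 at time 0 (-1.06 ± 0.15, adjusted p = 0.00697). For both genes the dimmer probe set was closer to 0, at -0.43 for CT75 and -0.27 for NANOS1. ISL1, a homeodomain factor of sympathetic neuron development, had clone c6 signals of 219 and 163 and clone c8 signals of 185 and 174 at times 4 and 8, against 335 and 358 at time 0 (-0.86 ± 0.14, adjusted p = 0.0193), also without overlap.

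The other 7 named falls had changes between -0.93 and -0.75. ATP2B3, a plasma membrane calcium pump, changed by -0.93 ± 0.18, adjusted p = 0.0443. PLPPR4, of the phospholipid phosphatase-related family of neurons, changed by -0.87 ± 0.16, adjusted p = 0.0314. ADRA2A, the alpha-2A adrenergic receptor, changed by -0.77 ± 0.14, adjusted p = 0.0318, and its groups overlapped, with signals lower in clone c8 than in clone c6 at each of the 3 times. The protease gene ADAMTS1 (-0.80 ± 0.16), RELL1 (-0.79 ± 0.14), PIGW, of glycosylphosphatidylinositol anchor synthesis (-0.77 ± 0.13), and FAM221A (-0.75 ± 0.15) had adjusted p between 0.0188 and 0.0452.

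By time, 63 genes passed at time 4 against 0 (0.461%), 46 higher and 17 lower, and 682 passed at time 8 against 0 (4.99%), 391 higher and 291 lower. These comparisons share the time-0 arrays and a fit with 2 residual degrees of freedom, and the count at time 8 was 85 when the spread came from all 17 arrays and 8 in a fit with no clone term. Of the 59 risen genes, 45 passed at time 4 and 59 at time 8, and 40 were higher at time 8 than time 4 in both clones. That order was not counted over all genes. In the direct comparison of time 8 with time 4, 7 genes passed (0.0512%), 2 higher (0.0146%) and 5 lower (0.0366%). At an unadjusted p under 0.05 there were 2004 genes, where chance gives 684. CDKN1C was higher at time 8 by 0.95 ± 0.15, and TP53I11, a p53-inducible gene, by 0.92 ± 0.14. Lower at time 8 were TEX15, a germ cell gene (-1.18 ± 0.17), CCNE2, which encodes cyclin E2 (-1.06 ± 0.13), ZNF367 (-0.94 ± 0.14), the sister-chromatid cohesion gene DSCC1 (-0.76 ± 0.11) and the nucleolar protein gene NOP58 (-0.54 ± 0.09), with adjusted p between 0.0160 and 0.0479. Each moved the same way in both clones.

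Genes of the cell cycle split by phase at time 8. Of 52 genes of DNA replication and S phase, 18 fell and 0 rose at time 8 (against 2.13% of all genes fallen), with a list median of -0.34 against 0.04 over all genes. Of 33 genes of G2 and mitosis, 15 rose and 0 fell (against 2.86% of all genes risen), with a median of 0.41. At time 4 the S phase list had 1 fallen member, ZNF367, and the mitotic list none called, with medians of -0.13 and 0.23. The medians held their sign in every array: in clone c6, S phase genes were at -0.17 at time 4 and -0.35 at time 8, and mitotic genes at 0.12 and 0.51. In clone c8, S phase genes were at -0.10 at time 4 and -0.34 at time 8, and mitotic genes at 0.29 and 0.30. At time 8, 50 of 52 S phase genes in clone c6 and 49 in clone c8 were below time 0. Of all 13675 genes tested, 5961 in clone c6 and 6493 in clone c8 were below time 0 at time 8.

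Among S phase genes, ZNF367, a zinc finger gene of the cell cycle, had signals of 140.1 at time 4 and 65.1 at time 8 in clone c6, then 193 and 93.7 in clone c8, against 264 and 317 at time 0. At time 8 its change was -1.69 ± 0.14, adjusted p = 1.18e-05. E2F1, the transcription factor that drives S phase entry, had clone c6 signals of 218 and 149.7 and clone c8 signals of 194 and 156 at times 4 and 8, against 261 and 287 at time 0 (-0.78 ± 0.14, adjusted p = 0.00552 at time 8). CDC6, which loads the replicative helicase, had signals of 506 at time 4 and 371 at time 8 in clone c6, then 342 and 246 in clone c8, against 608 and 466 at time 0, with time 8 of each clone below its time 0 (-0.78 ± 0.12, adjusted p = 0.00179 at time 8). DTL changed by -0.92 ± 0.10 at time 8, PCNA, the sliding clamp of DNA replication, by -0.47 ± 0.09, and SLBP, which binds histone mRNA, by -0.67 ± 0.09. SLBP was also the S phase gene that fell over both times (-0.54 ± 0.11, adjusted p = 0.049). From the list of G1 cyclins and CDK inhibitors, CCNE2 had clone c6 signals of 280.5 and 113 and clone c8 signals of 321 and 161 at times 4 and 8, against 376 and 442 at time 0 (-1.49 ± 0.13, adjusted p = 2.11e-05 at time 8), and CCND1, cyclin D1, changed by -0.61 ± 0.12, adjusted p = 0.00981. CCNE1 fell as well, which makes 3 of 18 fallen at time 8, beside the rise of CDKN1C. Of all genes 2.13% fell and 2.86% rose.

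Among mitotic genes, the kinase PLK1 had signals of 198 at time 4 and 294 at time 8 in clone c6, then 416 and 567 in clone c8, against 135 and 337 at time 0 (0.88 ± 0.13, adjusted p = 0.00148 at time 8). Signals were higher in clone c8 at each time, and in each clone both later arrays lay above time 0. AURKA, the Aurora A kinase, had clone c6 signals of 936 and 1232 and clone c8 signals of 976 and 1134 at times 4 and 8, against 733 and 711 at time 0 (0.70 ± 0.10, adjusted p = 0.00118 at time 8), and cyclin B1, CCNB1, had signals of 1757 at time 4 and 2511 at time 8 in clone c6, then 1770.1 and 2183 in clone c8, against 1491 and 1506 at time 0 (0.64 ± 0.09, adjusted p = 0.00114 at time 8). MKI67, the proliferation marker, was at 0.16 ± 0.11, adjusted p = 0.468, and did not pass. The called changes of the list were small, from 0.38 to 0.88. Their number depended on the fit: with the spread taken from all 17 arrays, 3 S phase genes and 0 mitotic genes passed at time 8, and with no clone term, 0 and 0. Without time 8 of clone c6 the counts were 8 and 3, and the medians kept their sign. The fits with all 17 arrays or no clone term alter the error and not the changes, so there the sign could not differ.

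**Figure D3:**
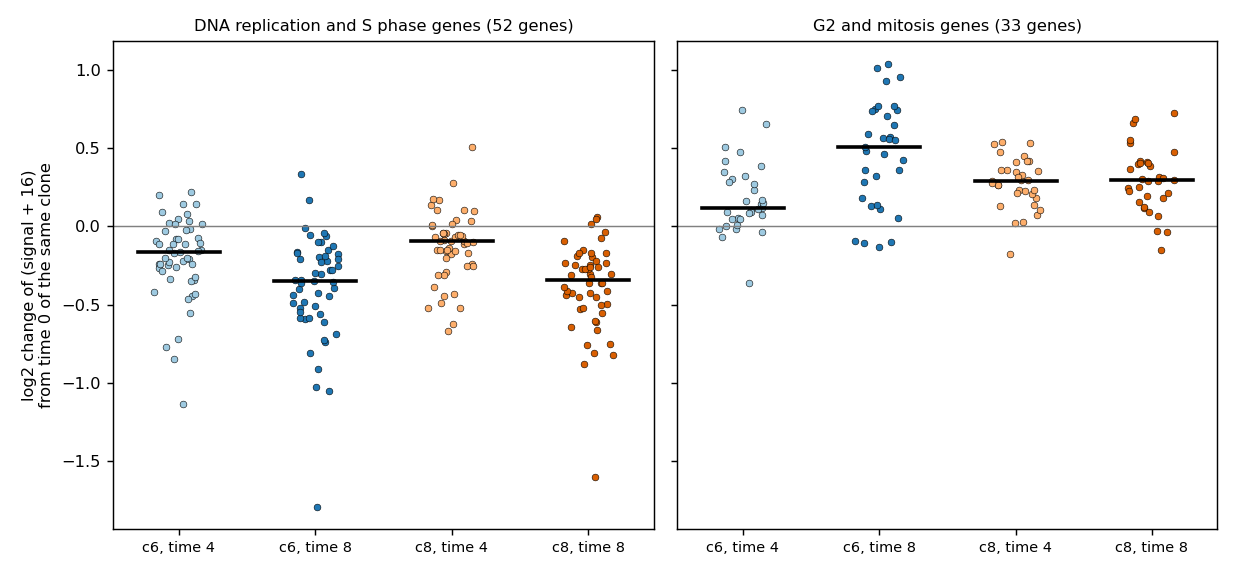
Log2 change of (signal + 16) from time 0 of the same clone (y axis) for each S phase gene (left) and each G2 and mitosis gene (right), 1 column per array, with the median as a bar. The S phase medians are below 0 and the mitotic medians above 0 on all 4 arrays, and the S phase medians are lowest at time 8.

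E2F factors bind sites in promoters of S phase genes. The letters TTTCCCGC, TTTGGCGC, TTTGCCGC or TTTCGCGC, on either strand, were found in the 300-base window of 32 of 233 genes that fell at time 8 (13.7%), 11 of 316 that rose (3.48%) and 5.13% of those tested. E2F1 is shown because it is itself an S phase gene that fell and holds 2 such sites, in capitals, at -33 (other strand) and -20 from its start, in the window chr20:33686383-33686635 (- strand).
E2F1: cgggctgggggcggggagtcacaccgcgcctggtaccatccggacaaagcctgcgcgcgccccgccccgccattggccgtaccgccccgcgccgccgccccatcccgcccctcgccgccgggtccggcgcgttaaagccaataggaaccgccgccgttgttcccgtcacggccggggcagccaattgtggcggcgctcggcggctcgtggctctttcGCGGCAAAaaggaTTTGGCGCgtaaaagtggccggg
CDC6 holds none of these letters in the same stretch before its start, but near matches to them were not searched. The class C E-box CACGNG, a letter pattern that HES and HEY repressors bind, was found for 45.1% of the genes that fell at time 8, 36.1% of those that rose and 41.1% of those tested.

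Further lists were counted at time 8, where 2.86% of all genes rose and 2.13% fell. The list of HES, HEY and other Notch-related genes had 6 of 20 higher, with MYC and TLE1 added, and 1 lower, CCND1. RGS genes had 5 of 13 higher, with RGS5 (0.66 ± 0.17) and RGS9 (0.94 ± 0.23) added. ID and feedback genes had 5 of 23 higher, with ID3 (0.69 ± 0.13), BAMBI, a decoy receptor of TGF-beta signalling (0.57 ± 0.13), and the receptor TGFBR2 (0.90 ± 0.24) added. MAML2, a Mastermind coactivator, joined LFNG among the 32 modulators (0.92 ± 0.23). Of 20 integrated stress and amino acid genes 3 rose, among them DDIT4, an inhibitor of mTORC1 (1.11 ± 0.13). Of 7 heat shock genes none was called and of 22 immediate early genes 2 rose, JUN (0.51 ± 0.12) and DUSP4 (0.88 ± 0.19), while EGR1 (-0.55 ± 0.19) did not pass and FOS was too dim to be tested.

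Of 17 adrenergic transcription factors, 1 rose at time 8, GATA2, and 3 fell, ISL1, SATB1 (-0.51 ± 0.08) and DACH1 (-0.60 ± 0.13). The fallen share was 17.6%, against 2.13% of all genes. The list median was -0.05. PHOX2A (0.23 ± 0.09), HAND2 (0.10 ± 0.18), GATA3 (-0.05 ± 0.08) and MYCN, the amplified oncogene of this line (-0.18 ± 0.08), did not pass. MYCN had signals of 4075 to 4633 at times 4 and 8, against 5493 and 4915 at time 0. All 4 arrays thus lay below both time-0 arrays, as for 5.94% of all genes tested. Over times 4 and 8 its 10 probe sets were at -0.73 to 0.13, with the brightest at -0.24. DBH, the enzyme that makes noradrenaline, was at 121 to 231 at times 4 and 8, against 192 and 245 at time 0, and did not pass. Of 12 proneural genes none passed: NEUROG2, a proneural factor, had clone c6 signals of 14.2 and 13.0 and clone c8 signals of 7.2 and 8.2 at times 4 and 8, against 30.6 and 35.6 at time 0, groups that do not overlap, with -0.89 ± 0.25, adjusted p = 0.0576 at time 8. DCX, a microtubule protein of migrating neurons, was the risen 1 of 23 neuronal cytoskeleton genes at time 8, and PLPPR4 the fallen 1. DCX had signals of 161 at time 4 and 446 at time 8 in clone c6, then 341 and 610.4 in clone c8, against 141 and 128 at time 0 (1.84 ± 0.20, adjusted p = 0.000147 at time 8). CADPS, of granule release, was the risen 1 of 13 catecholamine and granule genes (1.67 ± 0.20, adjusted p = 0.000311). Over all genes 2.86% rose and 2.13% fell at time 8.

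**Figure D4:**
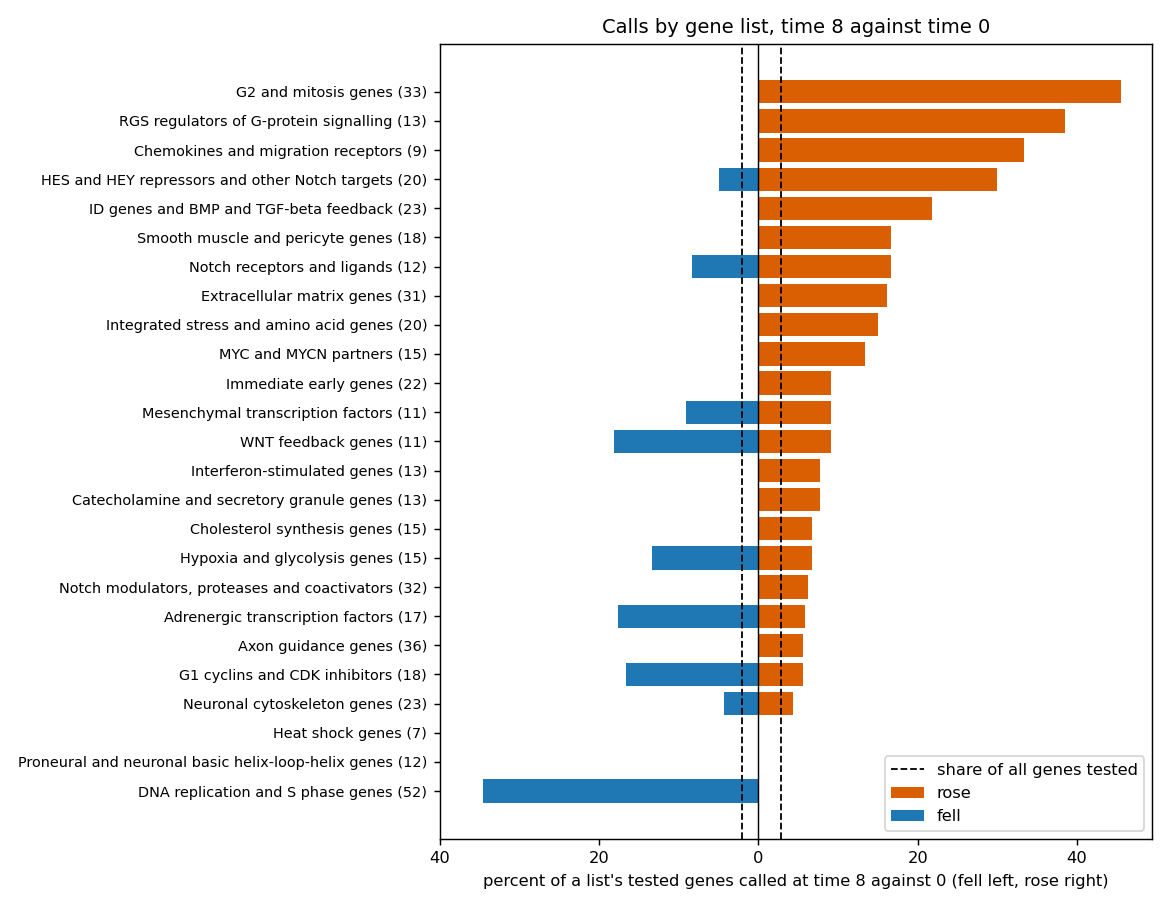
Percent of each list's tested genes (number in brackets) called at time 8 against time 0, with rises to the right in orange and falls to the left in blue, and dashed lines for the shares of all genes tested (2.86% and 2.13%). The mitotic list has the highest share risen (15 of 33) and the S phase list the highest share fallen (18 of 52).

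Genes of smooth muscle and matrix were counted at time 8, where 2.86% of all genes rose. Of 18 smooth muscle and pericyte genes 3 rose at time 8, NOTCH3, RGS5 and SMTN, which is 16.7% with a list median of 0.10, and of 31 matrix genes 5 rose, which is 16.1% with a median of 0.21. NOTCH3 and RGS5 also belong to the receptor and RGS lists. Whether the NOTCH3 probe set detects the construct is not stated. The other probe sets of SMTN were at 0.21 and 0.01 over times 4 and 8, against 0.57 for the one used. The fibrillar collagen COL3A1 had clone c6 signals of 13.0 and 39.4 and clone c8 signals of 32.1 and 43.4 at times 4 and 8, against 8.4 and 10.2 at time 0, and its change at time 8 was 1.18 ± 0.24, adjusted p = 0.0137. That value is from the brightest of 5 probe sets, which was at 0.87 over times 4 and 8, while the other 4 were at -0.12 to 0.24. ACTA2, smooth muscle actin, had signals of 26.0 at time 4 and 60.7 at time 8 in clone c6, then 86.5 and 73.7 in clone c8, against 45.9 and 92.6 at time 0, with overlapping groups, and did not pass at time 8 (0.02 ± 0.22, adjusted p = 0.978). MYC, dim before induction, had clone c6 signals of 4.9 and 25.5 and clone c8 signals of 2.5 and 35.1 at times 4 and 8, against 1.3 and 1.6 at time 0, so that it was above 16 on the time-8 arrays alone (1.40 ± 0.28, adjusted p = 0.011 at time 8). SNAI2, a mesenchymal transcription factor, rose at time 8 (0.78 ± 0.13, adjusted p = 0.00377) and ZEB1 fell (-0.46 ± 0.10, adjusted p = 0.0222).

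The clones were compared by the difference in their first response. In limma 0 of 13675 genes passed (0%), and the smallest adjusted p was 0.560. At an unadjusted p under 0.05 there were 363 genes, where chance gives 684. The test had 1 time-0 array per clone and 2 residual degrees of freedom, so the lack of calls does not show that the clones responded alike. The smallest p values belonged to PIANP, whose response was higher in clone c8 by 2.81 ± 0.43, SNAPC4 (-1.68 ± 0.33), NUTM1 (-1.98 ± 0.42), SLC30A1, a zinc exporter (1.49 ± 0.31), and MYH14 (-1.85 ± 0.40). Signals at time 4 were higher in clone c8 than in clone c6 for HEY1 (2259 against 553), CXCR4 (2421 against 864), NEO1 (1053 against 391) and JAG1 (222 against 123). HEY1 and CXCR4 were also higher in clone c8 at time 0 (71.4 against 30.0, and 223 against 91.0). Pooled over times 4 and 8, their changes from the clone's own time 0 did not differ by more than the fit's error. The difference (c8 minus c6) was 0.47 ± 0.69 for HEY1 and -0.17 ± 0.47 for CXCR4. The time-0 signals of JAG1 were 17.4 in clone c6 and 17.9 in clone c8. Clone differences in the change at time 4 alone were not tested.

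A comparison of times 48, 72 and 96 with times 4 and 8 followed these genes later. It shares the arrays of times 4 and 8 with the first response, and 1213 of 13675 genes passed (8.87%), 824 higher (6.03%) and 389 lower (2.84%) late. Of the 59 first-response rises, 11 were higher late than at times 4 and 8, 18 were lower and 30 were not called. JAG1 was among those higher late, at 3.72 ± 0.17 with signals of 2518 to 3486 late, and HEY2 changed by 2.10 ± 0.13, HES4 by 1.21 ± 0.12 and CXCL12 by 1.06 ± 0.17. HES1 was lower late (-1.08 ± 0.19), at 112 to 308.2, against 307.9 to 479 at times 4 and 8. CDKN1C (-0.82 ± 0.20), RGS4 (-0.73 ± 0.12), ID1 (-0.47 ± 0.12), LFNG (-1.03 ± 0.12), TGFB1 (-0.90 ± 0.18) and MREG (-0.70 ± 0.12) were lower late too. HEY1 (0.82 ± 0.27), CXCR4 (-0.41 ± 0.20) and SEMA6D (0.19 ± 0.16) did not pass.

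Of the 17 falls, 3 were higher late, 2 lower and 12 not called. CT75 was higher late (0.84 ± 0.13) at 143 to 209, still below its time-0 signals of 274 and 279, and ISL1 was higher (0.65 ± 0.13). NANOS1 was lower still (-0.63 ± 0.14). All 33 mitotic genes had lower estimates late than at times 4 and 8, and 15 of them passed, with a median of -0.36 against 0.00 over all genes, though 0 passed with the spread from all 17 arrays. The 52 S phase genes had a median of -0.06, with 2 lower and 0 higher. Over all genes 2.84% were lower late and 6.03% higher.

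Among the largest changes of that comparison were those of genes not called over times 4 and 8. COL3A1 was higher late by 6.68 ± 0.19, ACTA2 by 6.04 ± 0.26, TAGLN, the actin-associated protein transgelin, by 4.87 ± 0.34, RGS5 by 4.32 ± 0.29 and TNMD, tenomodulin, by 4.01 ± 0.46. COL3A1, TAGLN and TNMD had time-0 signals below 16, so the added 16 bears on their change. Lower late were DBH (-1.78 ± 0.29), the neuronal pentraxin NPTX1 (-1.53 ± 0.17), NWD2 (-1.33 ± 0.16), CKM, muscle creatine kinase (-1.32 ± 0.21), and the growth factor receptor FGFR2 (-1.22 ± 0.13). HEYL, not called at times 4 and 8, was higher late by 2.26 ± 0.13, at 246 to 354.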

How the data were processed

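Total RNA of 17 samples was measured on Affymetrix arrays, and 6 of these enter the first-response comparisons. The authors deposited linear intensities per probe set, made with MAS5 and GCOS per the submitters' processing notes, with no versions given. Detection calls and scanner files were not used here. From the values, all arrays share a trimmed mean of 100.01. Precision is limited by how few arrays there are.

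The platform annotation gave 1 gene symbol to 41097 of 54675 probe sets, several to 1801 and none to 11777. Symbols were checked by gene identifier in a RefSeq table (GRCh38.p14), which held 41043 of them and changed 0. Intensities were transformed to log2(value + 16). Each gene took its probe set of highest mean, and 13675 of 19775 genes at or above the 40th percentile of all probe sets (log2 of 4.68) were tested. No normalization was added.

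Tests used limma 3.58.1 in R 4.3.3 (lmFit, eBayes with a trend) with Benjamini-Hochberg adjustment over all genes tested and a threshold of 0.05. Times 4 and 8 were pooled against 0 with the clone as a term (3 residual degrees of freedom). Each time against 0 and time 8 against 4 came from a fit with a term per time and the clone, and the clone difference from an interaction. Late against first response used times 48, 72 and 96 against 4 and 8 with the clone as a term (7 residual degrees of freedom). The clone pairs the arrays by its label, and clone differences at times 0, 4 and 8 correlated with each other at 0.38 to 0.474 across genes. At most 1.42% of values were equal between arrays, so each array was kept. The fits were tested on simulated data.

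Named genes were the 15 largest rises and 10 largest falls on the same side of time 0 on 4 of 4 arrays, the 5 largest each way for the other comparisons (the 5 smallest p where none passed), up to 4 of smallest p per list, members of 25 lists, and genes fixed by name. The arrays, lists and genes were chosen with earlier results of these data known. Promoters and motifs came from RefSeq windows of 300 bases, with no test. The other settings tried were quantile normalization, median centring, a pseudocount of 1 or 64, no filter, averaged probe sets, no trend, no clone term, all 17 arrays, each array left out, and, chosen after seeing the data, a term for each time.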

Additional observations from a re-analysis of the deposited data

Results flagged for a closer look

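For 3 genes, 1 of the 4 arrays of times 4 and 8 stood apart from the others by its gap, measured as a share of the range of the 4 arrays. The gap was 0.899 of the range for RGS4, where time 4 of clone c6 was lowest at 3874, against 5440.1 to 5652 on the other 3. It was 0.872 for NEO1, where the same array was lowest at 391, against 1053 to 1217. It was 0.855 for ATP2B3, where time 4 of clone c8 was highest at 61.0, against 33.3 to 36.6. Each of these arrays still lay on the same side of both time-0 arrays as the others. The 4 arrays span 2 clones and 2 times, and chance alone marks about 1 in 20 such groups.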

How the results depend on the processing

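The first-response count (times 4 and 8 against 0) of 76 was 38 with median centring, 11 with no filter, 23 with averaged probe sets, 6 without a trend, 12 with no clone term (no replicate block, where the clone pairs the arrays), and 324 with a term for each time, chosen after seeing the data; leaving out single arrays gave 7 to 381. In the same order of the first 5 settings, the 63 calls for time 4 against 0 became 39, 12, 13, 0 and 2, and 10 with all 17 arrays, with 70 to 101 when single arrays were left out. The 682 calls for time 8 against 0 became 315, 125, 264, 12 and 8, and 85 with all 17 arrays, with 167 to 1115. For time 8 against 4, the 7 calls became 0 with no filter, the mean of probe sets, no trend, no replicate block or all 17 arrays, and 0 to 267 without single arrays. The clone difference had 0 to 11 calls without single arrays of times 4 and 8 and 0 under the other settings; without a time-0 array it could not be fitted. Late against first response stayed within 1.5 times of 1213 calls, at 816 with no replicate block and 974 to 1372 without single arrays. The causes were not tested. Of 35 named genes called in the first response, HEY1, HES1, CXCR4, JAG1, RGS4 and ID1 kept the call under all 16 alternatives, and over all 560 gene and setting pairs 339 calls were kept, 221 lost and 0 changed direction. No filter, no trend, no clone term, all 17 arrays and a term for each time leave a gene's change as it was. Under these settings no direction could differ. Median centring moved the median clone difference of all genes to 0.13. Among S phase and mitotic genes at time 8, the calls of 18 and 15 became 10 and 8 with median centring, 8 and 3 with no filter, 11 and 8 with the mean of probe sets, 1 and 0 without a trend and 0 and 0 with no replicate block.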

Other observations

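The first response held further regulators, which were chosen here after their values were seen. Among risen genes, BCL6, which encodes a transcriptional repressor, had signals of 103 to 164 at times 4 and 8, against 52.5 and 53.0 at time 0 (1.13 ± 0.18, adjusted p = 0.0166 in limma). MSX1, a homeodomain factor, had 168 to 321 at times 4 and 8, against 88.5 and 158 at time 0 (0.89 ± 0.14, adjusted p = 0.0125). GADD45G, of a growth arrest and DNA damage family, had 157 to 304 at times 4 and 8, against 108 and 85.7 at time 0 (1.02 ± 0.17, adjusted p = 0.0188), and was lower at times 48, 72 and 96 than at times 4 and 8 (-0.74). GMNN, which encodes geminin, an inhibitor of replication licensing, rose by 0.81 ± 0.15, and CCNG2, cyclin G2, by 0.80 ± 0.15.

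Fallen genes included 5 more transcription factors. TBX3 had 277 to 299 at times 4 and 8, against 489.7 and 444 at time 0 (-0.66 ± 0.12, adjusted p = 0.0312). ZBTB18, a zinc finger repressor, had 1509.6 to 1714 at times 4 and 8, against 2459 and 2443 at time 0 (-0.55 ± 0.09, adjusted p = 0.0188). TOX3 changed by -0.65 ± 0.13, TSHZ1 by -0.72 ± 0.14 and FOXD1 by -0.58 ± 0.10. In each of these fallen genes all 4 arrays of times 4 and 8 lay below both time-0 arrays.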
